A study of Mus musculus with 12 samples.

Results

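Collagens are the triple-helical proteins that give the extracellular matrix of the heart its tensile strength. Each molecule is built of 3 alpha chains, and every chain has a gene of its own. Fibrillar collagens such as types I and III are made mainly by cardiac fibroblasts and form the cables between muscle bundles. Type IV collagen forms the sheet-like network of basement membranes around cardiomyocytes and vessels. The remaining types bind to fibrils, form beaded filaments or short-chain networks, or cross the cell membrane, and many of them are best known from cartilage, skin or cornea. The genes described here are the entries of the count table whose symbol has the form Col, a number, the letter a and a number, with at least 1 count. There were 44 of them among 51826 entries, of which 29861 had at least 1 count. They comprise 11 fibrillar genes, 8 basement membrane genes (6 of type IV and the multiplexins Col15a1 and Col18a1) and 25 others.

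CUG960 +dox mice carry TREDT960I in the homozygous and the transactivator MHCrtTA in the hemizygous state, and doxycycline (dox) then induces an RNA with 960 CUG repeats. MHCrtTA +dox controls are hemizygous for MHCrtTA and lack the repeat transgene, so the transactivator and dox are common to both genotypes. The transactivator is driven by the α myosin heavy chain promoter, which is active in cardiomyocytes, whereas most collagen mRNA of the heart comes from other cells. All mice were FvB females of 10 weeks, with dox from postnatal day 1. The chambers of 6 mice were sequenced as 12 libraries, 3 for each of 4 groups. Controls were V327, V333 and V334, and CUG960 mice were V119, V120 and V123. Each mouse gave an atrial and a ventricular library, so the replicates of a group are different animals. Their spread also holds that of dissection and library preparation, which cannot be told apart from that between animals.

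Depth was between 116127966 counts (atria of V123) and 160676189 counts (ventricles of V119). In atria the CUG960 libraries had fewer counts than the controls and in ventricles more, without overlap between genotypes in either chamber. Levels are CPM, counts scaled to a common library size, and 1 CPM corresponded to about 138 counts in a library of mean effective size. Differences are log2 fold changes with their standard errors (SE) from edgeR's quasi-likelihood test, and P values were adjusted over every gene tested. A gene was called when its adjusted P value was under 0.05 and its fold change was at least 1.5 in either direction. Markers fitted the labelled tissue: the summed level of 7 cardiomyocyte genes was between 38529 and 63555 CPM, with Myh6, the α myosin heavy chain, as the most abundant, and 7 epicardial and mesothelial genes summed to 182 to 311 CPM in atria, against 4.15 to 8.05 CPM in ventricles. No marker gene of the 12 cell type lists used here was at 0 in every library.

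The collagen genes called between genotypes in either chamber are Col4a2, Col8a1, Col11a2 and Col13a1, and Col4a1 and Col8a1 were called for the difference between chambers in the genotype effect. Their regulatory sequence is shown so that the genes behind the results can be placed in the genome. The bases are from RefSeq on GRCm38.p6, written 5′ to 3′ on the strand of the gene. Each of the first 3 lines holds the 250 bases before a start of the gene in RefSeq, and capitals mark matches, on either strand, to 3 promoter motifs. For Col11a2 this start lies upstream of the gene's start in GENCODE M21, at chr17:34039437. The TATA motif was searched as TATAAA. The second motif was searched as CCAAT, for which it is named. The GC box was searched as GGGCGG. The window shown for Col8a1 lies at chr16:57754738-57754987 on the minus strand, that for Col13a1 at chr10:61979109-61979358 on the minus strand, and that for Col11a2 at chr17:34038888-34039137 on the plus strand. The last line is the stretch at chr8:11312805-11312826, plus strand, in which the first exons of Col4a1 (minus strand) and Col4a2 (plus strand) overlap, and it was not searched for motifs.
Col8a1: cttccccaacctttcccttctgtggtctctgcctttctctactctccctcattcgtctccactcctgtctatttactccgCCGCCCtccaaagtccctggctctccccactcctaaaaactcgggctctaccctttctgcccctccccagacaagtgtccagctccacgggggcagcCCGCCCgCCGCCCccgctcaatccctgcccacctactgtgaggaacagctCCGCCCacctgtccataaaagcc
Col13a1: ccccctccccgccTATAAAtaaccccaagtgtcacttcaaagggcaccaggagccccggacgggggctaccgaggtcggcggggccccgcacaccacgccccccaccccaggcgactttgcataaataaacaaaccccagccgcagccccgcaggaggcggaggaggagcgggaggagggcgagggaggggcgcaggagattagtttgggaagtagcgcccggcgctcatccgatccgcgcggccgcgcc
Col11a2: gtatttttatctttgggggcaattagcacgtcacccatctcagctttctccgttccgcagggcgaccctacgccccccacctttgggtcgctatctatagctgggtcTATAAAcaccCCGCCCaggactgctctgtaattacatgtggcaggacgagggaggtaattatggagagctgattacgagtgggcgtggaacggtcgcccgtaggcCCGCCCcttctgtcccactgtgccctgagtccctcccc
Col4a1 and Col4a2: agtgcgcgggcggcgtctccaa

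The window of Col8a1 held 4 GC boxes, at 170, 73, 66 and 23 bases before the start, all on the reverse strand. That of Col13a1 held 1 TATA motif, at 237 bases. The window of Col11a2 held a TATA motif at 143 bases and GC boxes at 133 and 38 bases before its RefSeq start. Of 32851 RefSeq windows, which reach from 250 bases before to 50 after a start, 12.4% held the TATA motif on either strand, 33.8% the CCAAT motif and 32.7% the GC box. Among the 38 windows of 35 collagen genes these shares were 13.2%, 34.2% and 57.9%. A match is a run of letters and no evidence of a bound factor.

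Per length, the collagen mRNAs spread over more than 4 orders of magnitude. To compare genes, CPM were divided by exon length in kilobases (kb), counting every base in any annotated exon of the gene in GENCODE M21. This length can exceed that of the main transcript, so the ranking depends on the annotation. It was 12.4 kb for Col1a2 against 6.56 for Col1a1, and 8.33 for Col6a2 against 4.38 for Col6a1. In control atria, undivided CPM averaged 268 for Col1a2, 135 for Col1a1, 72.3 for Col6a2 and 56.7 for Col6a1. Averaged over the 12 libraries, the highest levels were those of Col4a1 (39.6 CPM per kb), Col3a1 (36.3), Col4a2 (29.0), Col15a1 (18.2), Col1a2 (15.5) and Col1a1 (15.4). Col4a1 and Col4a2 encode the chains of the common type IV network, Col3a1 the chain of type III fibrils, Col15a1 a collagen that links basement membranes to the fibrils around them, and Col1a1 and Col1a2 the chains of type I. Of the other classes the leaders were Col6a1 (13.9 CPM per kb) and Col6a2 (8.70), chains of the beaded filament collagen type VI, and Col14a1 (8.61), which sits on the surface of fibrils. In control atria Col3a1 was the highest, at 52.4 ± 1.9 CPM per kb (SD, n = 3), and in control ventricles Col4a1 was the highest, at 56.2 ± 2.8. In control ventricles, neighbours in this order such as Col1a2 (11.7 ± 1.5) and Col1a1 (10.7 ± 1.7) differed by less than their spread.

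**Figure D1:**
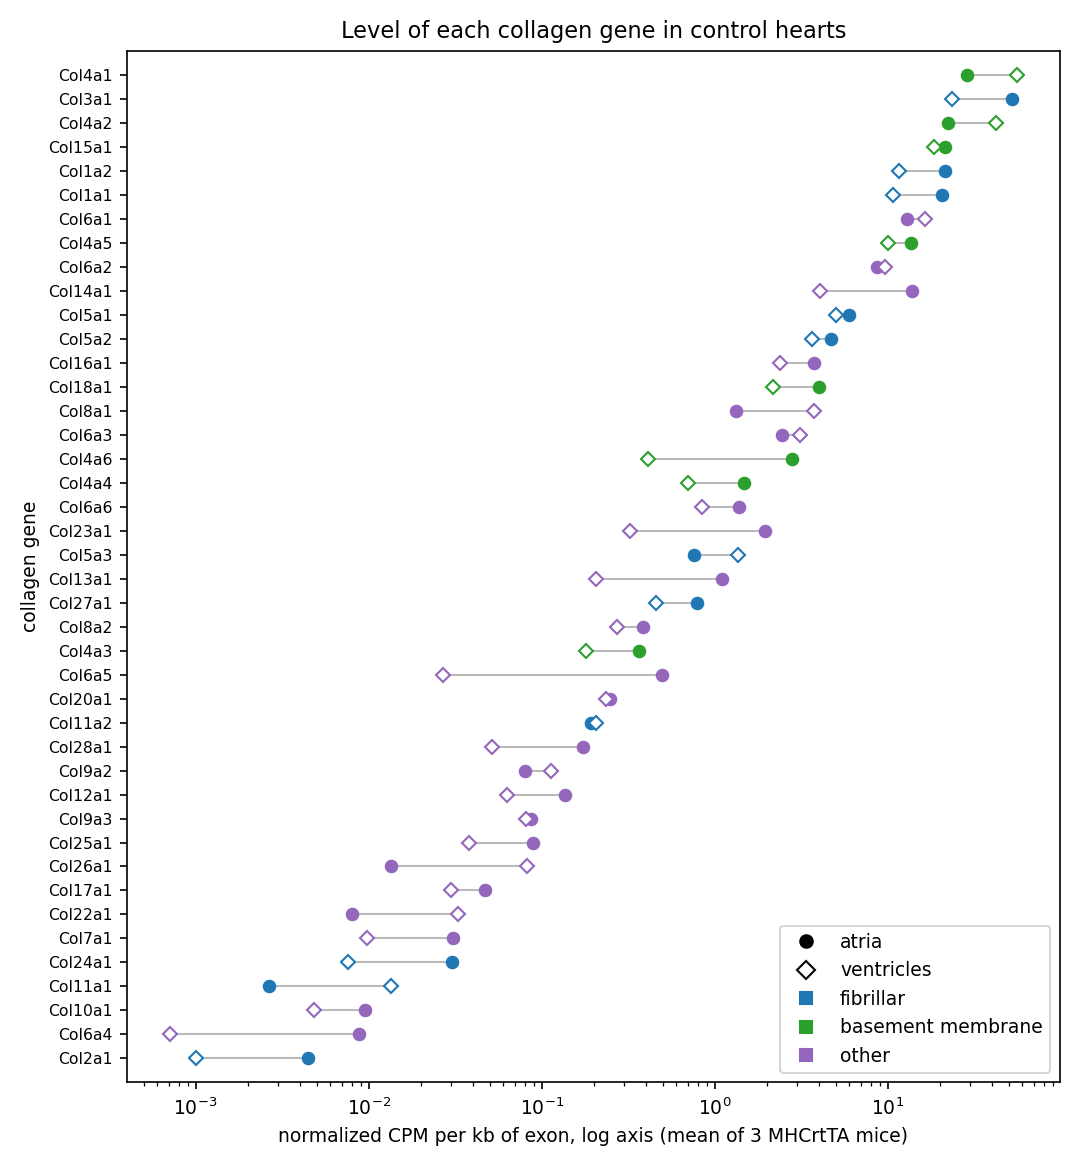
Mean level of collagen genes in MHCrtTA +dox controls, in CPM per kb of exon on a log axis (filled circles, atria; open diamonds, ventricles; n = 3 mice; color gives the class). Col3a1, Col1a1 and Col14a1 lie further right in atria and Col4a1, Col4a2 and Col8a1 in ventricles; Col9a1 and Col19a1, at 0 in control atria, are left out.

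At the other end, genes known mainly from cartilage and other tissues were close to the limit of detection. Col9a1 had 0 counts in every atrial library, which allows up to 3 counts each, and at most 3 in ventricles. Col2a1, the main chain of cartilage, had at most 7 counts in a library, Col10a1 of hypertrophic cartilage at most 11, and Col19a1 at most 10. Col11a1 had between 2 and 7 counts in atria and up to 41 in ventricles. Col24a1 had at most 10 counts in ventricles and Col6a4 at most 2. With these left out by edgeR's filter on low counts, 39 collagen genes were tested between genotypes in atria and 38 in ventricles. These floors cover counting error alone.

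Collagen mRNA made up between 0.222% and 0.239% of counts in control atria and between 0.167% and 0.200% in CUG960 atria. Ventricular shares were between 0.128% and 0.165% for controls and between 0.139% and 0.164% for CUG960 mice. The genotypes did not overlap in atria and overlapped in ventricles. The summed level of the 44 genes was 1984, 2061 and 2026 CPM in the atria of V327, V333 and V334, and 1686, 1662 and 1426 CPM in those of V119, V120 and V123. In ventricles it was 1705, 1567 and 1923 CPM in controls and 1769, 1812 and 1566 CPM in CUG960 mice. The mean of CUG960 atria thus differed from that of controls by −21.4% (1591 ± 143 against 2024 ± 38.5 CPM, SD, n = 3), and that of ventricles by −0.901% (1716 ± 131 against 1731 ± 179). V123 was the lowest CUG960 library in both chambers and had the lowest value of its group for 26 of the 39 genes tested in atria. Without V123, a setting added after the data were seen, the atrial difference was −17.3% and the ventricular difference 3.42%.

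Each class followed the total in atria. The fibrillar sum was 987, 1063 and 1042 CPM in control atria and 903, 869 and 704 CPM in CUG960 atria (−19.9%, and −14.0% without V123). The basement membrane sum was 667, 664 and 647 CPM against 498, 515 and 474 CPM (−24.8%, and −23.2% without V123). The sum of the other collagens was 330.0, 333.9 and 337 CPM against 285, 278 and 248 CPM (−19.0%, and −15.6% without V123). In each of the 3 classes every CUG960 atrial library lay under every control. In ventricles the genotypes overlapped in all 3 classes, with differences of 6.75% for fibrillar, −5.71% for basement membrane and −0.00666% for other collagens. Without V123 these were 12.6%, −2.28% and 4.20%. The control V333 had the lowest value of its group for 24 of the 38 genes tested in ventricles, and the sums were not recomputed without a control. The chambers differed in makeup: fibrillar genes gave 49.4% to 53.6% of collagen counts in atria, against 30.1% to 34.2% in ventricles, and basement membrane genes 29.6% to 33.6%, against 49.6% to 53.8%.

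**Figure D2:**
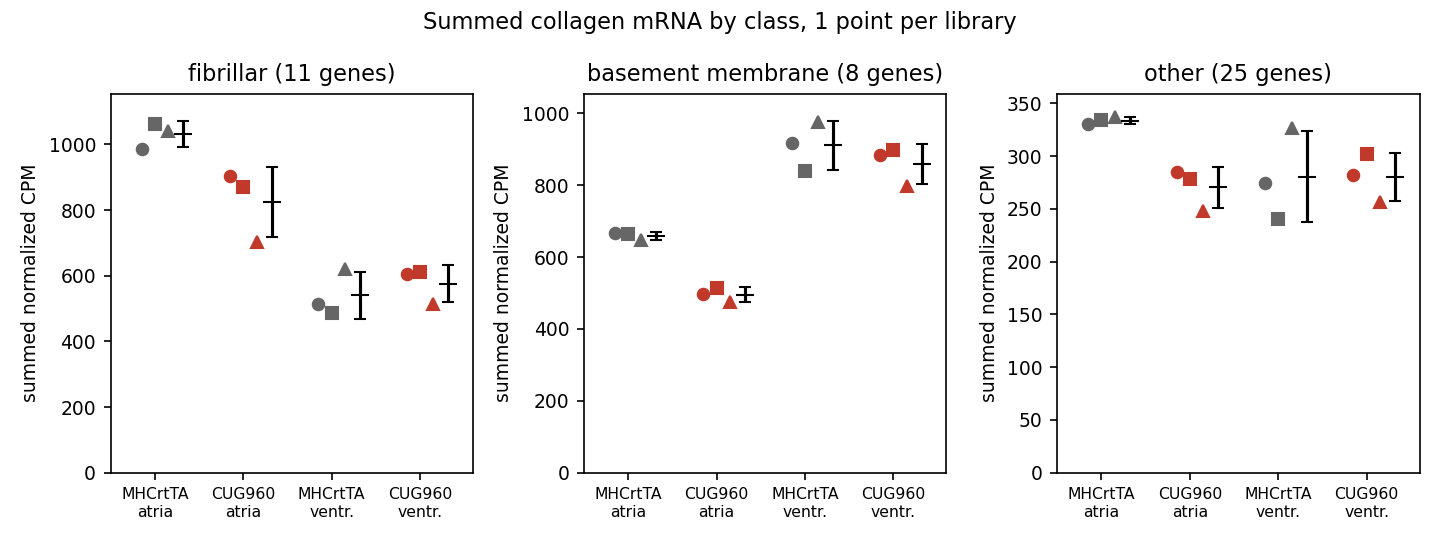
Summed normalized CPM of fibrillar, basement membrane and other collagen genes in each library (gray, MHCrtTA; red, CUG960; circle, square and triangle stand for V327, V333 and V334 or V119, V120 and V123; black, mean ± SD, n = 3). In atria the CUG960 libraries lie under the controls in each panel, and in ventricles the genotypes overlap.

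In atria, the question was which collagen genes differ in level between the genotypes. Col4a2 and Col8a1 were called, both lower in CUG960, so 2 of 39 genes tested (background: 5.49% of all 17650 genes tested were called). Without a fold change limit, 11 of 39 were lower at an adjusted P value under 0.05 (background 6.62%) and 1 was higher, Col13a1 (background 7.95%). Of the 39, 36 had a log2 fold change under 0, against 51.4% of all genes tested, and the median was −0.33 against −0.01. In 17 of them every CUG960 library lay under every control (background 17.2%). A fit with no filter on low counts, which includes 43 of the 44 genes, gave 39 under 0. Leaving out a mouse moved the share of genes lower at any fold among all genes as well. The collagen count was 4 without V333 (3.02% of all genes), 6 without V334 (3.62%), 7 without V120 (3.51%), 8 without V119 (3.003%), 10 without V123 (6.78%) and 11 without V327 (4.78%).

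Col4a2 had 152, 144 and 144 CPM in the atria of V327, V333 and V334 and 98.0, 96.4 and 97.2 CPM in those of V119, V120 and V123. The CUG960 libraries lay close together, well under the controls. It fell by 0.60 on the log2 scale (SE 0.053, adjusted P = 0.000531, 1.51-fold lower), a fold change just over the limit and under it without V327. Its head-to-head partner Col4a1 had 226, 213 and 204 CPM in controls and 141, 157 and 154 CPM in CUG960, again without overlap. Col4a1 fell by 0.51 (SE 0.067, adjusted P = 0.00276), which is 1.42-fold and under the fold limit.

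Col8a1 encodes a short-chain collagen of vessel walls and of the valves. It had 9.52, 10.9 and 11.0 CPM in control atria and 5.37, 8.16 and 7.04 CPM in CUG960 atria. The groups did not overlap, and V119 was the lowest. It fell by 0.61 (SE 0.15, adjusted P = 0.0298, 1.53-fold lower). The call was lost without V119, V123, V333 or V334, with adjusted P values of up to 0.0916.

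By class, 3 of 9 fibrillar genes tested were lower at an adjusted P value under 0.05 (background 6.62%). These were Col1a2, Col5a1 and Col5a2, with log2 fold changes of −0.37, −0.49 and −0.51. Col5a1 and Col5a2 encode chains of type V, which sits within type I fibrils and limits their width. The median of the fibrillar genes was −0.49. Col3a1 (−0.28, SE 0.10) and Col1a1 (−0.26, SE 0.11) did not pass the test. Col3a1 had 496, 533 and 515 CPM in control atria and 468, 446 and 360.4 CPM in CUG960 atria, and Col1a1 had 139, 139 and 128 CPM against 128, 118.9 and 93.3 CPM. V123 was the lowest for both genes, and the genotypes did not overlap for Col3a1 and met at 128 CPM for Col1a1.

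Of 8 basement membrane genes, Col4a1, Col4a2 and Col18a1 (−0.38, adjusted P = 0.0186) were lower at any fold (background 6.62%), with a class median of −0.30. Col18a1 encodes the precursor of endostatin. The minor type IV chains Col4a3, Col4a4, Col4a5 and Col4a6 had log2 fold changes between −0.21 and −0.07, and none passed the test. Of 22 other collagens, 5 were lower at any fold (background 6.62%), Col6a1, Col6a3, Col8a1, Col14a1 and Col16a1. Only Col13a1 was higher at any fold (background 7.95%), and the median was −0.28. Among them, Col6a1 had 53.9, 55.9 and 60.3 CPM in controls and 47.8, 48.4 and 39.4 CPM in CUG960 atria (−0.33, adjusted P = 0.0448).

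**Figure D3:**
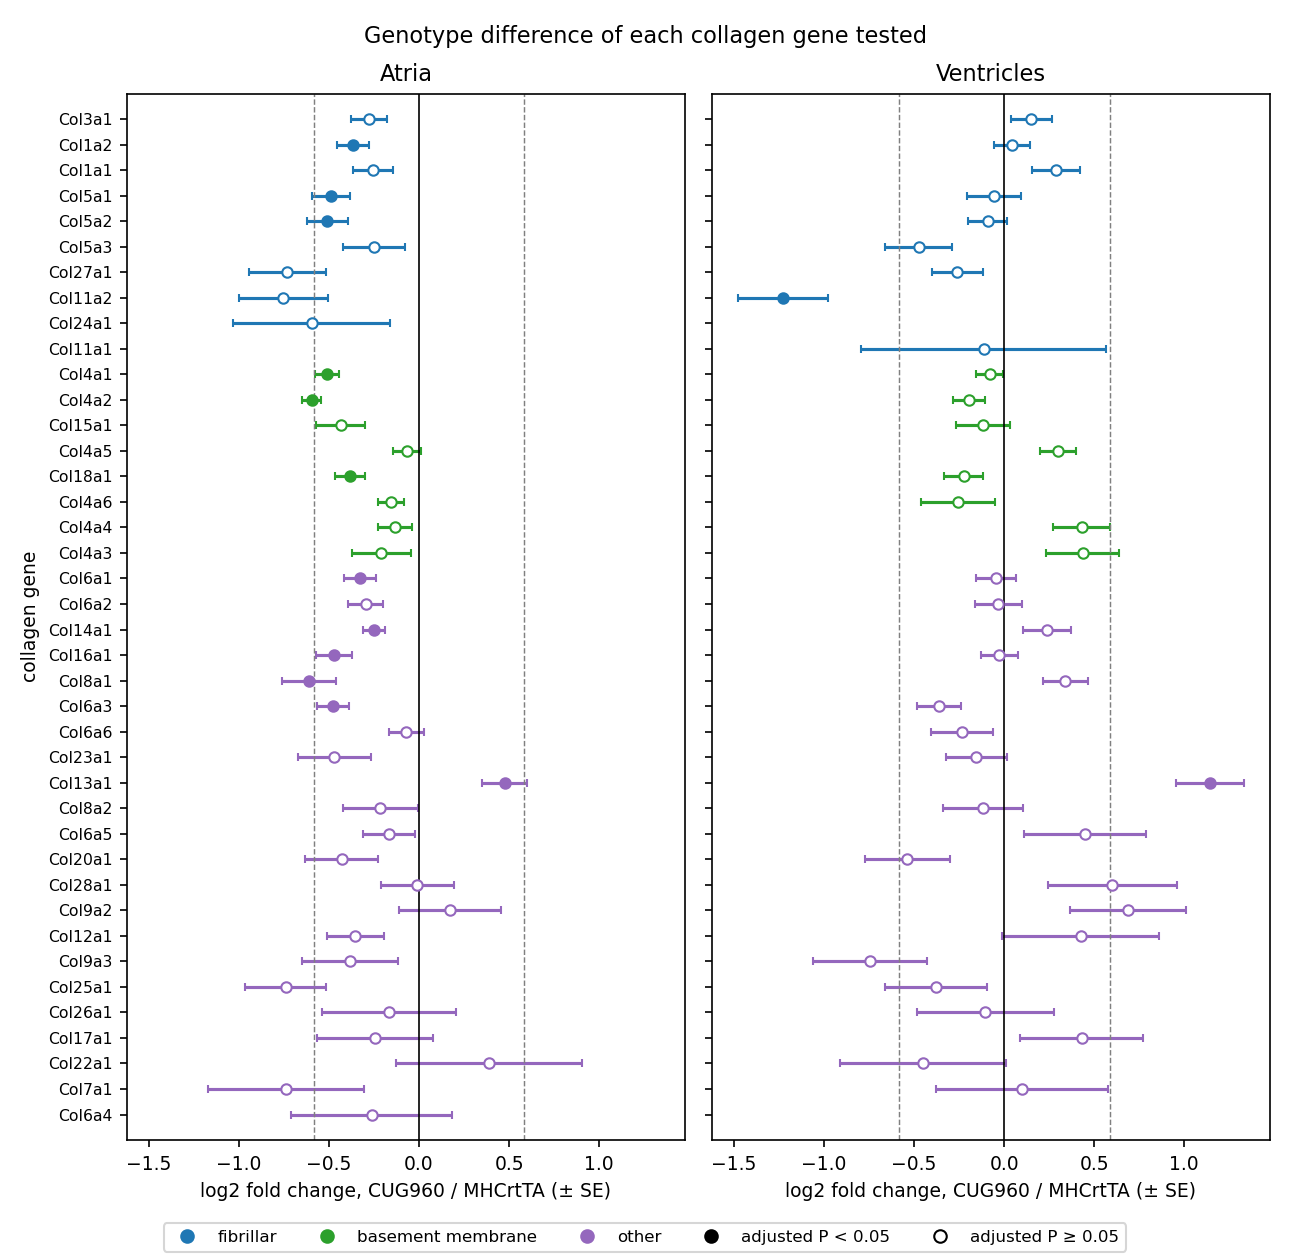
Log2 fold change (± SE) of CUG960 +dox against MHCrtTA +dox for each collagen gene tested, in atria (left) and ventricles (right), ordered by class and then by level per length. Filled points have an adjusted P value under 0.05, dashed lines mark a fold change of 1.5, and 36 of 39 atrial points lie left of 0 against 23 of 38 ventricular points.

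In ventricles, the same question gave Col11a2, lower, and Col13a1, higher, so 2 of 38 genes tested were called (background 4.75%). The same pair passed without a fold change limit, 1 lower (background 4.20%) and 1 higher (background 5.73%). Leaving out a mouse gave 0 lower without V119 (2.12% of all genes) or V120 (2.06%) and 2 without V333 (3.57%). Without V334, 4 were higher, among them Col8a1 (adjusted P = 0.0184). Of the 38, 23 had a log2 fold change under 0 (51.4% of all genes) and 15 above, with a median of −0.07 (all genes −0.01). The count under 0 was between 18 and 23 when a mouse was left out. The CUG960 libraries lay entirely under the controls for 3 genes, Col9a3, Col11a2 and Col20a1 (background 15.0%), and entirely above for 5, Col4a5, Col8a1, Col9a2, Col13a1 and Col17a1 (background 16.2%). Col1a1, Col1a2 and Col3a1 had log2 fold changes of 0.29 (SE 0.13), 0.04 (SE 0.099) and 0.15 (SE 0.11), and none passed the test.

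Col13a1 encodes a transmembrane collagen found at cell-matrix contacts and at the neuromuscular junction. Its ventricular level was 0.786, 0.978 and 1.07 CPM in V327, V333 and V334 and 2.08, 2.34 and 1.85 CPM in V119, V120 and V123. The groups were well apart. It rose by 1.14 on the log2 scale (SE 0.19, adjusted P = 0.00662, 2.21-fold), and the call held without each mouse in turn, with adjusted P values between 0.0122 and 0.0318. In atria it had 4.53, 5.81 and 4.81 CPM against 7.69, 6.99 and 6.405 CPM, again without overlap. That rise of 0.48 (SE 0.13, adjusted P = 0.0392) was under the fold limit and was lost at the adjusted P value without V119, V120, V327 or V334 (up to 0.130). Col13a1 was thus higher in CUG960 in both chambers, and the difference between chambers in this change (−0.67, SE 0.21, adjusted P = 0.181) did not pass the test.

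Col11a2 encodes a chain of the minor fibrillar type XI. Its ventricular level was 1.23, 1.53 and 1.48 CPM in controls and 0.453, 0.558 and 0.799 CPM in CUG960 mice, without overlap. It fell by 1.23 (SE 0.25, adjusted P = 0.0166, 2.34-fold lower). The call was lost without V119 (adjusted P = 0.0510) and without V120 (0.0649). In atria it had 0.943, 1.298 and 1.75 CPM against 0.733, 0.913 and 0.721 CPM, with controls widely spread and just above the CUG960 libraries, and the log2 fold change of −0.75 (SE 0.25) did not pass the test.

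**Figure D4:**
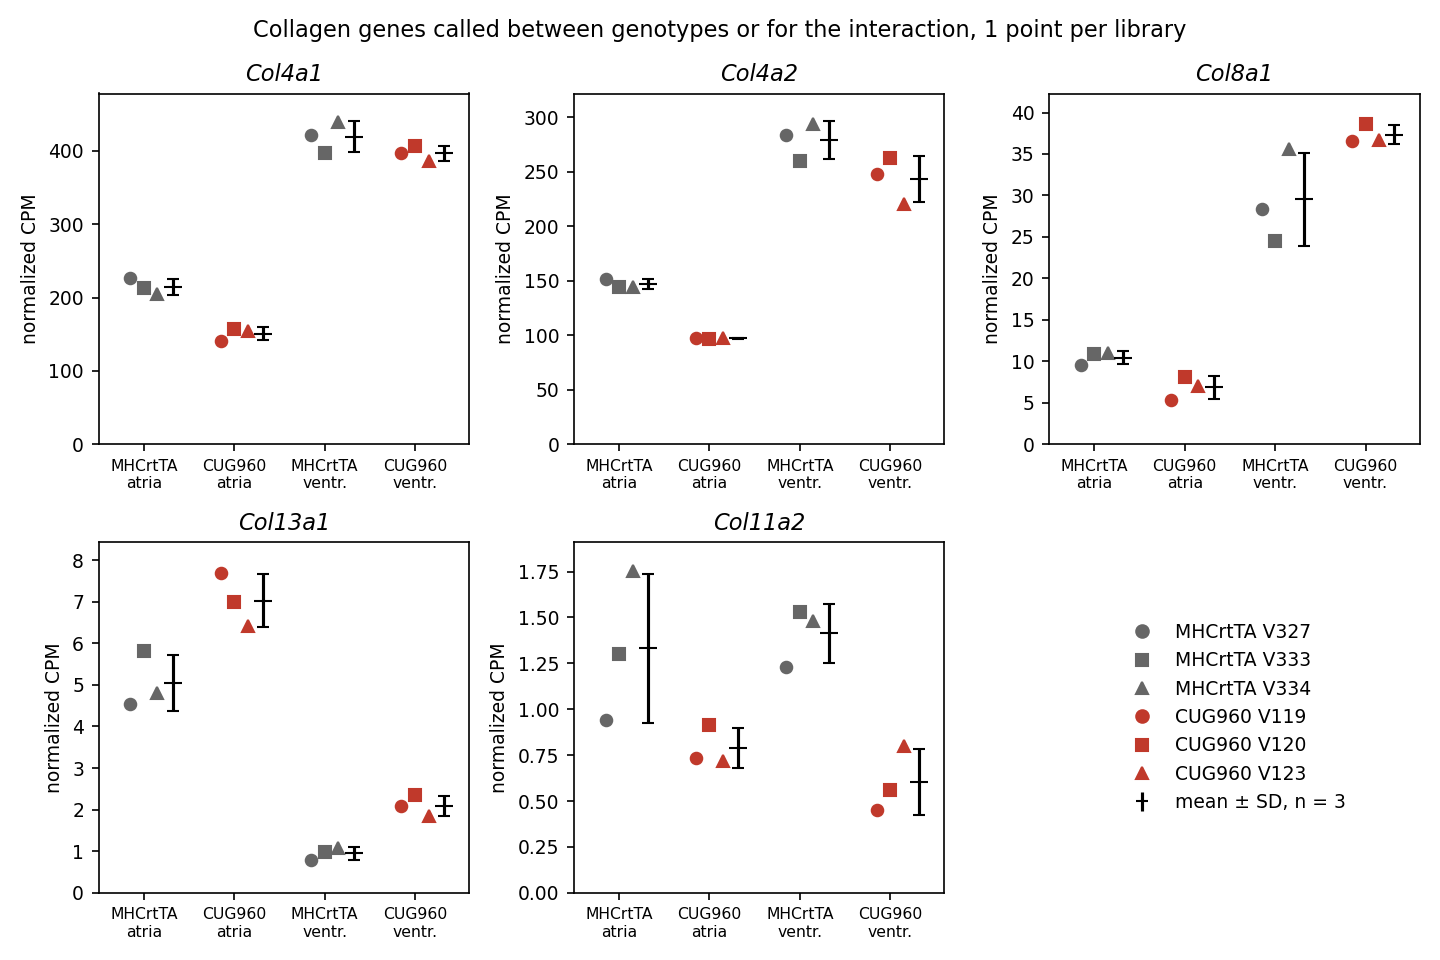
Normalized CPM of Col4a1, Col4a2, Col8a1, Col13a1 and Col11a2 in each library, on linear axes from 0 (gray, MHCrtTA; red, CUG960; symbols give the mouse; black, mean ± SD, n = 3). Col4a1 and Col4a2 are lower in CUG960 atria and not apart in ventricles, Col13a1 is higher in CUG960 in both chambers, and Col11a2 is lower in CUG960, far apart in ventricles and narrowly in atria.

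Whether the genotype difference of a gene differs between chambers was tested as an interaction over the 12 libraries. Col8a1 and Col4a1 passed at an adjusted P value under 0.05, so 2 of 40 genes tested (background 1.38%). In ventricles Col8a1 had 28.4, 24.5 and 35.7 CPM in controls and 36.6, 38.6 and 36.7 CPM in CUG960 mice, just above the controls where its atrial values lay under them. Its interaction, the atrial minus the ventricular log2 fold change, was −0.95 (SE 0.21, adjusted P = 0.0461). Col4a1 had 422, 397 and 439 CPM in control ventricles and 398, 406 and 386 CPM in CUG960 ventricles, which overlap, and its interaction was −0.43 (SE 0.094, adjusted P = 0.0457). With the mouse as a replicate block, Col8a1 remained (−0.98, adjusted P = 0.0237) and Col4a1 did not (−0.43, adjusted P = 0.0808).

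Both interactions were near the threshold. Without each mouse in turn, Col4a1 was lost in 6 of 6 fits (adjusted P up to 0.190), and Col8a1 in 5 of 6 (up to 0.207), without V334 being the exception (0.0492). The log2 values kept their sign, between −0.50 and −0.38 for Col4a1 and between −1.07 and −0.81 for Col8a1. Col4a2 had an interaction of −0.40 (SE 0.10, adjusted P = 0.0831). Of the 40 genes, 32 had an interaction under 0, against 50.4% of all genes, with a median of −0.40 against −0.00. Fibrillar genes outside these calls, such as Col1a1 (−0.54, adjusted P = 0.255) and Col3a1 (−0.43, adjusted P = 0.300), did not pass, so a difference between chambers was not shown for them.

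Where each collagen is expressed in the heart was asked by comparing atria with ventricles within a genotype. In controls 26 of 39 genes tested were called, 19 higher in atria (background 18.3%) and 7 higher in ventricles (background 16.6%). In CUG960 mice 18 of 38 were called, 11 higher in atria (background 17.2%) and 7 higher in ventricles (background 16.4%). Among called genes that averaged 1 CPM or more over the 12 libraries, the largest atrial excesses in controls were those of Col6a5, Col4a6 and Col23a1. Col6a5 reached that mean through its atrial level, and its ventricular level was under 1 CPM. Col6a5, a further type VI chain, had 4.39, 5.14 and 4.52 CPM in control atria and 0.199, 0.199 and 0.357 CPM in control ventricles, a log2 difference of 4.20 (SE 0.24, adjusted P = 2.86e-06). For Col4a6 (20.6, 23.0 and 23.3 against 3.12, 2.43 and 4.36 CPM) it was 2.75 (SE 0.19), and for the transmembrane collagen Col23a1 (8.64, 14.7 and 10.3 against 1.68, 2.12 and 1.74 CPM) 2.60 (SE 0.21). The chambers did not overlap for these genes.

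The largest ventricular excesses in controls among genes with this mean were those of Col8a1 (−1.50, SE 0.14), Col4a1 (−0.97, SE 0.070) and Col4a2 (−0.93, SE 0.068), where negative values are higher in ventricles. In CUG960 mice these were −2.46 (SE 0.14), −1.41 (SE 0.073) and −1.34 (SE 0.078). The 3 main fibrillar genes were called higher in control atria, Col3a1 by 1.16, Col1a1 by 0.94 and Col1a2 by 0.88, and in CUG960 mice the values were 0.72, 0.39 and 0.46. Of these, Col3a1 alone was called in CUG960, and Col1a1 and Col1a2 passed the adjusted P value but not the fold limit. Both genotypes have their own atria and ventricles in this comparison, but each chamber difference shares its libraries with the genotype differences above and is no independent support for them.

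**Figure D5:**
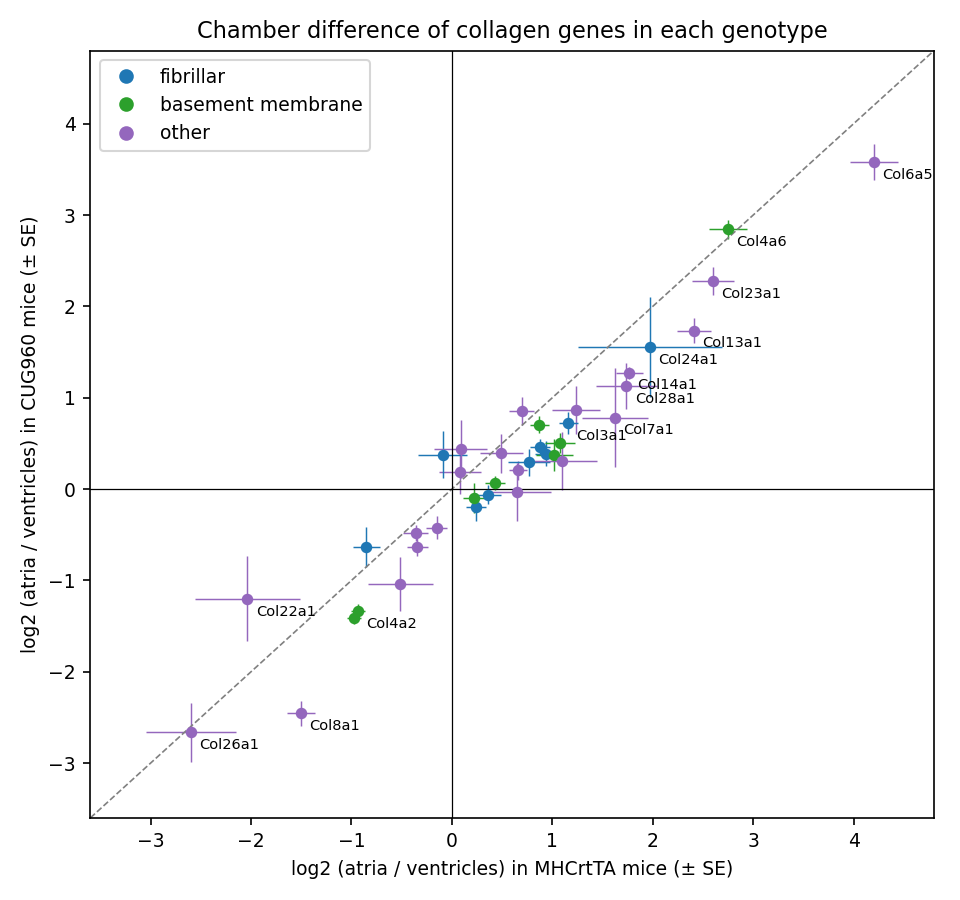
Log2 ratio of atria to ventricles for collagen genes tested in both genotypes, in MHCrtTA +dox (horizontal) against CUG960 +dox mice (vertical), ± SE, with a dashed line of equality and color for the class. Col6a5 (4.20 and 3.58) and Col4a6 (2.75 and 2.85) lie far to the atrial side and Col8a1 (−1.50 and −2.46) to the ventricular side, where Col26a1 (−2.60 and −2.67), under 1 CPM in each group, lies further out.

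Several collagen genes are arranged in pairs, in which the ratio of the levels per length can be compared. Col4a1 and Col4a2 start head to head on chromosome 8 with 22 shared bases, and their ratio was between 1.26 and 1.55 over the 12 libraries. In ventricles it was 1.32, 1.35 and 1.32 in controls and 1.42, 1.37 and 1.55 in CUG960 mice, without overlap, and in atria the genotypes overlapped. Col4a3 and Col4a4, chains of the kidney and lung basement membrane network, start 71 bases apart on opposite strands, and their ratio was between 0.210 and 0.271. Col4a5 and Col4a6 start 1308 bases apart on the X chromosome, also head to head, yet their ratio differed by chamber: it was 4.55 to 5.56 in atria, against 23.1, 31.0 and 21.2 in control ventricles and 33.0, 37.3 and 36.7 in CUG960 ventricles, which lay above the controls.

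Col1a1 and Col1a2 lie on different chromosomes and encode the chains of the same protein, with a ratio between 0.857 and 1.19. In ventricles it was 0.970, 0.857 and 0.918 in controls and 1.07, 1.19 and 0.992 in CUG960 mice, narrowly without overlap, and in atria the genotypes overlapped. Col6a1 and Col6a2, on chromosome 10 in the same direction and 85161 bases apart, had a ratio between 1.39 and 1.77. Col3a1 and Col5a2 lie tail to tail on chromosome 1 with 24614 bases between them, and their ratio was 10.2 to 14.6 in atria, against 6.20 to 8.56 in ventricles. The ratios are descriptions, and libraries of a mouse share that mouse.

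Collagen chains are hydroxylated and folded in the endoplasmic reticulum, exported, trimmed of their propeptides, crosslinked by lysyl oxidases, bound by receptors and broken down by proteases. Of 98 genes on 9 lists for these steps and for partners in fibrils and basement membranes, 94 were tested in atria, with 4 called higher (background 3.37%) and 8 lower (background 2.12%). In ventricles 4 of 95 tested were called, near the 4.75% of all genes called in either direction. All 4 were higher, and 0 were called lower by edgeR (background 1.76%), while 32 of the 95 had an unadjusted P value under 0.05 (25.7% of all genes) and 4 were lower at an adjusted P value under 0.05. The list median was −0.06 in atria and −0.02 in ventricles. For the interaction, edgeR called 0 of 95, of which 24 had an unadjusted P value under 0.05 (12.3% of all genes).

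Called lower in CUG960 atria were the lysyl oxidase Lox (−0.81, adjusted P = 0.0250), fibronectin Fn1 (−1.09), versican Vcan (−0.67) and periostin Postn (−0.73). So were the collagen uptake receptor Mrc2 (−0.59), the protease Fap (−0.71), nidogen Nid1 of basement membranes (−0.68) and Creb3l1, a transcription factor of secretory cells (−0.89). Fn1 had 188 ± 78.0 CPM in control atria and 88.2 ± 7.998 CPM in CUG960 atria (SD, n = 3). Higher in CUG960 atria were Adamts3, a procollagen N-proteinase (0.82), the collagen-binding integrin Itga10 (0.94), and the laminin chains Lama3 (0.67) and Lamb3 (0.60). In ventricles the called genes were Adamts3 (1.17), Pcolce2, an enhancer of propeptide removal (0.69), the collagen receptor Ddr1 (0.65) and the laminin chain Lamc3 (1.46).

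By step, the 18 genes of folding and hydroxylation had a median of 0.05 in atria and 0.06 in ventricles with 0 called by edgeR in either (10 and 8 with an unadjusted P value under 0.05, against 30.2% and 25.7% of all genes). Their summed level was 1254 ± 2.69 CPM in control atria and 1328 ± 31.5 CPM in CUG960 atria, and so did not share the direction of the collagen sum. The 7 export genes had medians of 0.03 and −0.06, the 6 crosslinking genes −0.41 and −0.03, and the 14 tested genes of fibril assembly −0.24 and −0.03. The 10 receptors had medians of −0.05 and −0.12, but their sum, of which the integrin Itgb1 is 72.3%, was above the controls in each CUG960 library of both chambers (19.7% and 12.6%). Medians were −0.06 and −0.20 for the 12 tested proteases, −0.25 and −0.15 for their 6 inhibitors, and −0.04 and 0.02 for the 14 tested basement membrane partners. For the genes of propeptide removal, 7 tested in atria and 8 in ventricles, the medians were −0.15 and 0.49. Sums differed between genotypes in atria and ventricles by −15.2% and −1.47% for crosslinking, −13.8% and 2.28% for fibril assembly, 2.81% and 0.255% for export, and 1.70% and 22.0% for propeptide removal. They differed by −6.44% and −3.73% for proteases, 5.42% and 0.133% for inhibitors, and −5.01% and −0.555% for basement membrane partners. Without V123 the crosslinking sums differed by −10.3% and 6.34%, the atrial sums for propeptide removal and export by 5.23% and 0.792%, and the ventricular sums of fibril assembly, proteases and basement membrane partners by −0.0447%, −0.708% and 2.66%. The ventricular sums of export and inhibitors then differed by 0.483% and 0.453%.

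Marker levels of fibroblasts and of vessel cells are given beside the collagen differences. In bulk tissue, fewer cells of a type and less RNA per cell cannot be told apart. Of 12 fibroblast genes, 12 had a log2 fold change under 0 in atria (51.4% of all genes), 5 were lower at any fold (background 6.62%), and Mfap5 (−0.67) and Pi16 (−0.88) were called lower (background 2.12%). Their sum, of which Dcn is 59.2%, was 1765, 2032 and 2167 CPM in control atria and 1651, 1785 and 1537 CPM in CUG960 atria, which overlap (−16.6%). In ventricles 11 of 12 were under 0 (51.4% of all genes), 1 was lower at any fold (background 4.20%), 0 were called by edgeR (5 with an unadjusted P value under 0.05, against 25.7% of all genes), and the sum differed by −7.34%. Of 9 genes of activated fibroblasts, which share Postn, Lox and Fap with the lists above, 4 were called lower in atria (with Meox1, −0.65; background 2.12%) and 0 in ventricles by edgeR (3 with an unadjusted P value under 0.05, against 25.7% of all genes).

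The sum of the activated fibroblast genes, of which Ctgf is 76.5%, was 671, 402 and 939 CPM in control atria and 388, 502 and 208 CPM in CUG960 atria, with V123 the lowest and overlap between genotypes (−45.4%, and −33.6% without V123). In ventricles the same sum was 186, 143 and 180.4 CPM against 199, 271 and 180.0 CPM, also with overlap (27.6%, and 38.4% without V123). Endothelial cells also make type IV collagen. Their 10 genes were under 0 in both chambers (51.4% of all genes in each), with Pecam1 (−0.71) and Tek (−0.62) called lower in atria (background 2.12%) and Cldn5 (−0.62) and Eng (−0.60), the most abundant at 22.1% of the sum, in ventricles (background 1.76%). The endothelial sum was 1311, 1514 and 1171 CPM against 982, 1117 and 1002 CPM in atria (−22.4%), and 1172, 1014 and 1109.8 CPM against 805, 800.2 and 844 CPM in ventricles (−25.7%). For the endothelial sum the CUG960 libraries lay under the controls in both chambers. For the sum of basement membrane collagens they did so in atria and overlapped the controls in ventricles. A link between these sums was not tested.

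The 7 pericyte genes were under 0 in both chambers as well (51.4% of all genes), with a sum led by Rgs5 (44.3%) of 239.9, 263 and 260.5 CPM against 182, 188 and 227 CPM in atria (−21.9%) and 1016, 982 and 1082 CPM against 839, 697 and 789 CPM in ventricles (−24.6%); Vtn (−0.69) was called lower in ventricles (background 1.76%). Smooth muscle genes, led by Acta2 (53.8%), did not share a direction. Their sum was 357, 259 and 259 CPM against 326, 273 and 466 CPM in atria, with V123 the highest (21.6%, and 2.56% without V123), and 220.4 to 328 CPM in ventricles with overlap (−4.36%, and 3.72% without V123). In atria 1 of 6 tested was called, Tagln, which was higher (1.21, background 3.37%). In ventricles 3 of 6 were called lower (background 1.76%), Tagln (−0.63), Myh11 (−0.65) and Mylk (−0.71). There Myocd (0.61) was called higher, as were 507 of all 16909 genes tested.

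The epicardial and mesothelial genes, led by Upk3b (50.7%), summed to 287, 285 and 264 CPM in control atria and 311, 285 and 182 CPM in CUG960 atria, with V123 the lowest (−6.99%, and 6.95% without V123). In ventricles the difference was −25.2%, and −15.8% without V123. Of these genes 0 were called by edgeR in either chamber (1 of 7 and 2 of 6 with an unadjusted P value under 0.05, against 30.2% and 25.7% of all genes). Of the cartilage markers, Sox9, 79.1% of their sum, was called lower in atria (−0.74), 1 of 4 tested (background 2.12%). That sum was 6.85, 7.13 and 7.73 CPM against 4.08, 4.93 and 4.99 CPM in atria, without overlap (−35.5%), and overlapped in ventricles (−15.1%, and −25.8% without V123). Schwann cell genes, led by Mbp (44.6%), summed to 42.1, 45.8 and 52.7 CPM against 37.6, 35.0 and 39.1 CPM in atria (−20.6%). In ventricles they summed to 17.3, 16.0 and 19.0 CPM against 8.69, 10.3 and 13.7 CPM (−37.5%), without overlap in either chamber. Of 7 tested in atria, Mbp (−0.66) was called lower (background 2.12%) and Kcna1 (1.65) higher (background 3.37%). In ventricles 6 of 6 tested were under 0 and 1 was called lower (background 1.76%). Macrophage genes, led by Lyz2 (50.1%), summed to 335, 290.3 and 634 CPM in control atria and 325, 374 and 325 CPM in CUG960 atria, where the control V334 alone lay far above the rest, and to 119.4 to 166 CPM in ventricles. The genotypes overlapped in both chambers, and 0 were called by edgeR in either (0 of 7 and 1 of 7 with an unadjusted P value under 0.05, against 30.2% and 25.7% of all genes). All 7 macrophage genes had a log2 fold change under 0 in both chambers (51.4% of all genes in each).

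Adipocyte genes, of which Fabp4 is 98.5%, summed to 178, 145 and 129 CPM against 99.6, 138 and 106 CPM in atria, with overlap (−24.2%). In ventricles they summed to 612, 639 and 499.7 CPM against 338, 388 and 423 CPM, without overlap (−34.4%). There 3 of 6 were called lower (background 1.76%), Fabp4 (−0.60), Plin1 (−1.86) and Retn (−2.05). All 6 adipocyte genes had a log2 fold change under 0 in both chambers (51.4% of all genes in each). Their sum follows Fabp4 and need not stand for the other genes or for fat cells. Between the chambers of controls, 1 of the 6 genes was lower in atria (47.9% of all genes), while the mean sum was 151 CPM in atria and 583 CPM in ventricles. Skeletal muscle genes, led by Ckm (80.4%), which the heart also expresses, summed to 803, 758 and 763 CPM against 558, 459.8 and 516 CPM in atria (−34.0%) and to 2559, 2643 and 2550.3 CPM against 1714, 2377 and 2062 CPM in ventricles (−20.6%), without overlap in either, with Ckm (−0.60) and Tnnt3 (−2.05), 2 of 4 tested, called lower in atria (background 2.12%). The cardiomyocyte sum was higher in each CUG960 atrial library (41409 to 43466 CPM) than in the controls (38529 to 40179.7 CPM), with Myh6 as 53.0% of it. By contrast, 5 of its 7 genes had a log2 fold change under 0 in atria (51.4% of all genes). At any fold, 2 of the 7 were higher (background 7.95%) and 1 was lower (background 6.62%). In ventricles Ryr2 (−0.67), 1 of 7 tested, was called lower (background 1.76%). The part of these cell types and of depth in the collagen differences was not tested.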

How the data were processed

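RNA-Seq was made from atria and ventricles of 6 mice. The authors aligned the reads to GRCm38 (mm10), ran RSEM 1.3.1 on the Ensembl 89 annotation for gene-level expected counts, and deposited whole-number expected counts (0 values were not whole), not scaled for depth. Of 51826 entries, 92 repeat a symbol and were kept apart. RSEM splits reads shared between loci, and its strand setting is not given in the sources used here, so reads in antisense overlaps may be uncertain. Exon lengths and coordinates came from GENCODE M21 (GRCm38), in which 44 of 44 collagen symbols matched. Promoters came from RefSeq (GRCm38.p6) for 35 of the 44 genes.

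Counts were analyzed with edgeR 4.0.16 in R 4.3.3: filterByExpr, TMM scaling, the quasi-likelihood test (glmQLFit, glmQLFTest) and Benjamini-Hochberg adjustment over all genes tested, in the atrial or the ventricular libraries, in the libraries of a genotype, or, for the interaction, in all 12. SE is the log2 fold change divided by the square root of F. Displayed CPM use TMM over the 12 libraries. Since 3 mice against 3 cannot go under p = 0.1 in an exact permutation test, none was used. The steps were tested on simulated data. Alternatives were DESeq2 1.42.0 (the tool the authors name), RLE and upper quartile scaling, no filter, at least 10 counts in every library, a single fit, other fold limits, leaving out each mouse in turn and, where chambers were compared, a block for the mouse. Figures were drawn with matplotlib 3.10.9 and Python 3.11.15.

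Chambers are paired by mouse, since atria and ventricles of a number come from the same animal. After group means were removed, same-mouse libraries correlated across genes at r between 0.0503 and 0.307 (median 0.199, 6 pairs) and others at between −0.374 and 0.297 (30 pairs). Genotypes are not paired.

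The collagen genes, their classes, the 9 pathway lists and the 12 marker lists were chosen with earlier results of these data known. Named were collagen genes called between genotypes or for the interaction, the 3 highest per length in each class, the 3 largest chamber differences in each direction in controls among called genes of at least 1 CPM, gene pairs, genes under the filter, and listed genes called in either chamber, except for a marker that is not reported here. Col18a1, Col5a1, Col6a3, Col16a1 and others given as members of a count of at most 5 were named after their values were seen.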

Additional observations from a re-analysis of the deposited data

Results flagged for a closer look

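The genotype difference of Col8a1 and Col4a1 differed between atria and ventricles by a test of that difference, edgeR's interaction of chamber and genotype over the 12 libraries. For Col8a1 the atrial minus the ventricular log2 fold change was −0.95 (SE 0.21, adjusted P = 0.0461), with −0.61 in atria and 0.34 in ventricles. For Col4a1 it was −0.43 (SE 0.094, adjusted P = 0.0457), with −0.51 in atria and −0.08 in ventricles. Both calls were near the threshold. Leaving out a mouse lost that of Col4a1 in 6 of 6 fits and that of Col8a1 in 5 of 6. That of Col4a1 was also lost with the replicate block and with no filter on low counts.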

How the results depend on the processing

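RLE and upper quartile scaling called the same collagen genes as TMM in each comparison, and between genotypes and for the interaction no log2 value of Col4a1, Col4a2, Col8a1, Col11a2 or Col13a1 changed sign under the settings run; single genes were not followed between chambers. In atria, with 2 genes called, DESeq2 called 5 (adding Col11a2, Col25a1 and Col27a1), a log2 limit of 1.5 left 0 (20 had an unadjusted P value under 0.05 in edgeR), no fold limit gave 12, and leaving out a mouse gave 1 (without V119, V123 or V334) to 4 (without V327). In ventricles, with 2 called, a log2 limit of 1.5 left 0 (9 had an unadjusted P value under 0.05 in edgeR) and leaving out a mouse gave 1 (without V119 or V120) to 3 (without V334). For the interaction, with 2 called, DESeq2 called 3 (adding Col4a2, adjusted P = 0.0110), no filter on low counts gave 1 (Col8a1; Col4a1 had an adjusted P value of 0.0576), the replicate block for the paired chambers gave 1 (Col8a1), and leaving out a mouse gave 0 in 5 of 6 fits, with 13 at an unadjusted P value under 0.05 in the full edgeR fit, and 2 without V334 (Col8a1 and Col14a1). Between chambers, a log2 limit of 1.5 left 12 of 26 genes in controls and 7 of 18 in CUG960 mice, leaving out a mouse gave 21 to 25 and 14 to 18, and the block changed neither count. With an arm of 2 mice these fits have fewer animals, and why single calls were lost was not tested.

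Col9a1, Col2a1, Col10a1 and Col19a1, at up to 11 counts, were too low to compare.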
